A study of Mus musculus with 24 samples.

Results

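Mitochondrial ribosomal protein genes were followed in mice that lack Nudt12 and in wild-type mice, in liver and kidney of a cohort and in livers collected around the day. The members were all protein-coding genes whose symbol begins with Mrpl or Mrps and a digit, which gave 78 of the 50765 genes in each table and of the 22008 protein-coding ones. Every one of the 78 had a mean of at least 10 normalized estimated counts in each of the 3 tables and was tested. By symbol 49 are Mrpl and 29 are Mrps genes. By the place of the protein in the ribosome 51 belong to the large subunit and 26 to the small one, because Mrps30 and Mrps18a, in spite of their names, encode large subunit proteins. Mrps36 encodes a protein now assigned to the 2-oxoglutarate dehydrogenase complex and not to the ribosome. Among the others, 46 have a bacterial homolog and 31 are specific to mitochondria.

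The mitochondrial ribosome translates the few messenger RNAs encoded by mitochondrial DNA, all of which specify subunits of the respiratory chain and of ATP synthase. Its ribosomal RNAs come from mitochondrial DNA, whereas its proteins are encoded in the nucleus, made in the cytosol and imported, so that the organelle depends on many nuclear genes being expressed together. Liver and kidney are rich in mitochondria. The Nudt12 protein is a nudix hydrolase whose known substrates include free NAD(H) and RNAs that carry NAD at their cap position.

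The knockout mice were homozygous (Nudt12-/-) for a 58 bp deletion in exon 6 made with Cas9 in B6D2F1/J embryos, and all came from 1 line that was crossed with C57BL/6J; the wild-type mice were Nudt12+/+. A cohort of 3 to 4 months gave 3 wild-type and 3 knockout livers and 2 wild-type and 3 knockout kidneys used here, with no time of collection in the labels. A second set of 4 to 6 months gave 1 wild-type and 1 knockout liver at each of zeitgeber time (ZT, hours after lights on) 0, 4, 8, 12, 16 and 20, after 10 days under 12 h of light and 12 h of dark. Total RNA depleted of ribosomal RNA was sequenced, and the authors normalized each table by itself, so a level in 1 table cannot be read against a level in another. Nothing in the labels says that samples shared an animal or were separate ones, so p-values measure the spread between these samples.

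Each cohort liver library held 24.1 to 27.5 M (mega, 1e+06) normalized estimated counts, each kidney library 25.1 to 27.8 M and each time course library 16.9 to 19.9 M, from about 12.5 to 28.6 M estimated reads each. Nudt12 averaged 1158 ± 160 in wild-type and 226 ± 12.9 in knockout cohort livers (SD, n = 3 each), a log2 fold change of -2.34 (limma, adjusted p = 0.00944). The knockout was also lower for kidney (-2.34, adjusted p = 0.0404) and for the time course (-2.17, adjusted p = 0.0211). Markers of hepatocytes and of kidney tubule followed the tissue labels: 5 tubule genes together reached 380427 to 417126 in kidney libraries and 37.5 to 109 in cohort livers. The share of mitochondrially encoded genes was highest in wild-type liver 1 (7.39%, with 2.27 to 4.54% in the remaining cohort livers) and in wild-type kidney 1 (16.1%, with 7.40 to 9.54% in the remaining kidneys). The clock genes Arntl and Dbp stood apart between the genotypes of the cohort (in liver Arntl 401 ± 144 against 37.0 ± 17.2 and Dbp 157 ± 211 against 1394 ± 170, SD, n = 3 each; adjusted p = 0.0857 and 0.258), so collection time and genotype cannot be told apart there. In the time course, where times are matched, Arntl averaged 254 in wild type and 278 in knockout.

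The genes are scattered over 17 chromosomes (GENCODE vM21 on GRCm38). A protein-coding gene starts on the other strand, pointing away and within 1000 bases, beside 18 of the 78 (23.1%), against 6.79% of 21938 nuclear protein-coding genes. Promoter windows of RefSeq (GRCm38.p6, 250 bases before to 50 after the start) were matched for 69 members, with 75 windows in all. Exact letters of 6 motifs were counted in them on both strands. CCGGAAG, read by factors of the ETS family such as GABPA, was in 34.7% of the member windows and in 8.86% of all 32851 windows. AAGATGGC, the core of YY1 sites, was in 16% against 2.75%. GCGCATG, the larger part of the NRF1 palindrome, was in 10.7% against 3.91%, and the full palindrome, each match of which also counts as a match of that part, in 4.0% against 0.971%. GGGCGG, read by SP1, was in 52.0% against 35.7%. CACGTG, the E-box read by clock factors, was in 9.33% against 7.15%. These are matches of letters and not measured binding.

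Upstream stretches follow for 3 of the members whose daily curve is described below, chosen because each has a single RefSeq start; the fitted peaks of Mrps9 and Mrps5 lie close together and that of Mrpl34 lies in the other phase of the day. They are read 5′ to 3′ on the gene's strand (GRCm38.p6), and capitals mark the only motif of the 6 found, GGGCGG or its reverse complement in Mrps9 and Mrps5 and CCGGAAG in Mrpl34. The stretch of Mrps9 is chr1:42850983-42851232 on the plus strand, that of Mrps5 is chr2:127587176-127587221 on the plus strand and stops short of an exon, and that of Mrpl34 is chr8:71464676-71464925 on the plus strand.
Mrps9: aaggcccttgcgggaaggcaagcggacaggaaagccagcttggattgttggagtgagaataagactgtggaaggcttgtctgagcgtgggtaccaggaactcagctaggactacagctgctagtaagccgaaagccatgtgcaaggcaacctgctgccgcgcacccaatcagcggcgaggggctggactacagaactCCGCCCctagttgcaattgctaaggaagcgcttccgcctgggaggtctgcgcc
Mrps5: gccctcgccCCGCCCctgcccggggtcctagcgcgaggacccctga
Mrpl34: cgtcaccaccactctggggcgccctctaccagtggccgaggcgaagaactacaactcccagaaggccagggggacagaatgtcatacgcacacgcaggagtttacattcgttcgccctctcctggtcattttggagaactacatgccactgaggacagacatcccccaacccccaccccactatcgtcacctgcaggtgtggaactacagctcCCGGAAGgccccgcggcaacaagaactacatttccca
None of the 3 stretches held the E-box letters CACGTG. The start of Mrps5 lies 128 bases from that of Zfp661, which runs the other way.

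The mean values of the 78 genes ran from 26.3 to 1026 in cohort liver, from 40.1 to 1787 in kidney and from 22.6 to 899.99 in the time course. They lay above the median of protein-coding genes with a mean of at least 1 in 74, 75 and 71 cases in these tables, and above the 75th percentile in 15, 20 and 15. Thus most members were of moderate abundance, and few were among the most abundant messages. Between libraries of 1 table a member typically varied little, with a median coefficient of variation of 13.9% in cohort liver, 8.38% in kidney and 12.8% over the time course, genotypes and times pooled.

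Levels of different genes were compared per kb of coding length. Mrpl51, a mitochondria-specific large subunit protein, led in cohort liver with 1981 ± 128 per coding kb (SD, n = 6), followed by Mrps17 with 1965 ± 410 and Mrps21 with 1950 ± 511, and these neighbours in the order differed by less than their spread. In kidney Mrps21, the homolog of a small bacterial ribosomal protein, led with 5952 per coding kb, before Mrpl51 with 4416 and Mrpl42 with 4194. The time course had Mrpl51 (1658), Mrps21 (1368) and Mrpl50 (1272) at the top. Mrpl23 was lowest in all 3 tables, with 50.9, 77.8 and 43.7 per coding kb. Above it stood Mrps6 (227) and Mrps30 (243) in cohort liver, Mrps27 (323) and Mrps30 (399) in kidney, and Mrps11 (124) and Mrps6 (176) in the time course. Per kb of transcript length, a scale added after the values were seen, Mrps21 stayed within the first 2 in each table and Mrpl23 within the last 3, while Mrpl51 moved to rank 47 in cohort liver, rank 39 in kidney and rank 40 over the time course. Rank among the most abundant thus depended on the length chosen for most of the leading genes. The median level per coding kb was 685 for the 51 large subunit genes and 539 for the 26 small subunit genes in cohort liver, 1189 and 987 in kidney, and 449.9 and 408 in the time course.

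Mrpl23, whose bacterial homolog sits at the exit of the peptide tunnel, needs care. A processed pseudogene named Mrpl23-ps1 had 285 to 417 in cohort livers, 349.8 to 457 in kidneys and 237 to 332 in the time course, about an order of magnitude above the gene itself. The values are estimated counts, in which reads of near-identical copies are divided by estimation, so the split between the gene and its copy is uncertain. Mrpl48 and Mrps36 have processed pseudogenes with measured values too. Several results on Mrpl23, the rhythm of Mrpl48 and the tissue share of Mrps36 are given below with and without them.

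Summed over the 78 members, each library held a similar amount within its table. The wild-type cohort livers held 30008, 30344 and 36503, and the knockout livers 35064, 35922 and 32049. Wild-type kidneys held 57540 and 60898, and knockout kidneys 61808, 58782 and 60905. The genotypes overlapped in both tissues. In the time course the sum had its lowest, median and highest value at 23375, 23469 and 24046 in wild type and at 22382, 23406 and 24824 in knockout, so it varied by little around the day and the wild-type range lay inside the knockout range. Per M of the nuclear protein-coding counts of the same library, the members took 1501 to 1668 in wild-type and 1617 to 1839 in knockout cohort livers, 3079 and 3222 in wild-type and 3177 to 3313 in knockout kidneys, and 1566 to 1766 and 1608 to 1726 in the time course.

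**Figure D1:**
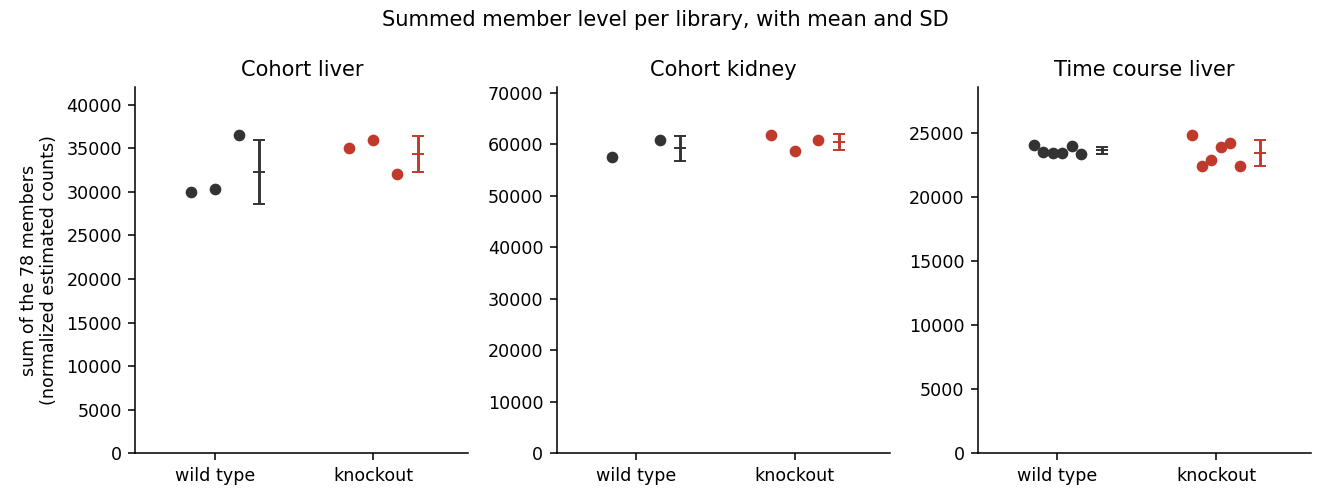
Sum of the normalized estimated counts of the 78 members in each library (points), by table and genotype, with the mean and SD of each group beside them; each axis starts at 0 and the tables are not on one scale. The points of the genotypes overlap in every panel, from 30008 to 36503 in cohort liver, 57540 to 61808 in kidney and 22382 to 24824 in the time course.

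Whether the loss of Nudt12 alters these messages was asked first in the cohort livers. No member passed the threshold (limma, adjusted p under 0.05), where 0.0157% of all 19088 genes tested did, which is 3 genes. At an unadjusted p under 0.05 there was 1 member, Mrpl14, while 7.99% of all genes reached that. The fold change was above 0 for 57 members and below 0 for 21, a share of 73.1% above 0 that compares with 50.3% of all genes. The median log2 fold change was 0.07, against 0.003 over all genes, and single values ran from -0.98 for Mrpl23 to 0.68 for Mrpl12. Large and small subunit genes had the same median of 0.07, with 36 of 51 and 20 of 26 above 0. The 95% interval lay within a change of 1 log2 unit either way for 74 of the 78, and within 1.5-fold either way for 47. Without wild-type liver 3, which had the highest member sum of its group, the median rose to 0.197, and with any other single liver left out it lay between 0.02 and 0.13.

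Mrpl14, whose protein lies at the face of the large subunit where the subunits join, had 316, 324 and 385 in the wild-type livers and 586, 451 and 428 in the knockout livers. The genotypes did not overlap, and the log2 fold change was 0.51 (SE 0.19, 95% interval 0.08 to 0.94, adjusted p = 0.586). Members whose genotypes did not overlap numbered 5 higher and 1 lower in the knockout (7.69% of the 78, against 13.9% of all genes, of which 7.07% were higher and 6.86% lower). Among them, Mrpl38, a protein of the central protuberance, had 517, 463 and 481 in wild type and 671, 537 and 635 in knockout (0.33, SE 0.16, adjusted p = 0.651). Mrpl53 had 219, 215 and 257.6 in wild type and 308, 316 and 257.99 in knockout (0.35, SE 0.18, adjusted p = 0.667), so its highest wild-type and lowest knockout livers all but met. The exons of Mrpl14 overlap those of Tmem63b on the opposite strand, and the sources used here do not say that counting used strand, so reads of the overlapping stretch cannot be told apart.

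Mrpl12 and Mrpl23 had the largest fold changes and the widest spread. Mrpl12, the stalk protein through which translation factors reach the ribosome, had 961, 536 and 277 in wild-type livers and 1037, 598 and 954 in knockout livers. The groups overlapped over most of their range (0.68, SE 0.42, adjusted p = 0.717). Mrpl23 had 44.3, 23.6 and 34.3 in wild type and 27.0, 21.0 and 7.33 in knockout (-0.98, SE 0.53, adjusted p = 0.670). When its pseudogene was added to it, the fold change was 0.23 (SE 0.18, limma adjusted p = 0.757). That sum is mostly the pseudogene, at 285 to 417 in these livers, so it cannot show the sign for Mrpl23 itself.

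Cell type markers were read beside the members in these livers, and none passed the adjusted threshold. All 5 hepatocyte markers had a fold change above 0 (median 0.33, 1 of 5 at an unadjusted p under 0.05), and they summed to 1141000 to 1321910 in wild-type and 1231510 to 1905030 in knockout livers. All 4 markers of macrophages and Kupffer cells had one below 0 (median -0.32, none at an unadjusted p under 0.05), with sums of 4228 to 6344 and 3997 to 4937, so that the summed ranges of both lists overlapped between the genotypes. Of all genes in cohort liver 50.3% were above 0 and 7.99% had an unadjusted p under 0.05. In the time course, where times are matched, the signs of both lists were reversed. There 0 of 5 hepatocyte markers (median -0.14) and 4 of 4 macrophage and Kupffer cell markers (median 0.13) were above 0, beside 49.6% of all genes. None of these markers was at 0 throughout a group. Their part in the member values was not tested, and in bulk tissue fewer cells of a type and less RNA per cell cannot be told apart.

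In kidney no member passed the threshold, as for all but 0.0045% of the 22224 genes tested (1 gene), and none reached an unadjusted p under 0.05, which 5.4% of all genes did. The median log2 fold change was 0.03, with 52 members above 0 and 26 below (66.7% above 0, against 50.3% of all genes). It turned to -0.03 without wild-type kidney 1, the library with 16.1% mitochondrial counts. Of the 78 intervals 77 lay within 1 log2 unit and 69 within 1.5-fold, so kidney bounds the change more closely than cohort liver does. Groups that did not overlap numbered 9 higher and 2 lower (14.1% of members against 20.5% of all genes, of which 9.9% were higher and 10.6% lower).

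Markers of other cell types were also read in kidney, and none passed the adjusted threshold. All 3 lymphocyte markers had a fold change below 0 (median -1.24, 1 of 3 at an unadjusted p under 0.05), with sums of 153 and 569.9 in wild-type and 57.6 to 139 in knockout kidneys, which do not overlap. Of the 5 hepatocyte markers 4 had one below 0 (median -0.49, 1 of 5 at an unadjusted p under 0.05), with sums of 28361 and 29847 against 25884 to 27946, which do not overlap either. Of all genes in kidney 50.3% were above 0, 5.4% had an unadjusted p under 0.05 and 20.5% had groups that did not overlap. The hepatocyte list was chosen to check the liver label, and the source of its values in kidney was not tested. Below 0 were also 3 of 3 macrophage markers tested, 2 of 2 podocyte, 2 of 3 endothelial and 1 of 2 adipocyte markers. No lymphocyte or hepatocyte marker was at 0 throughout a group. The part of any marker in the member values was not tested.

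The smallest p in kidney belonged to Mrpl18, a protein of the central protuberance, with 1063 and 1120 in wild type and 1586, 1132 and 1377 in knockout (0.31, SE 0.16, adjusted p = 0.909). Knockout kidney 2 lay next to the wild types and the other 2 above them. Mrpl38 had 1114 and 891 in wild type and 735, 648 and 995 in knockout (-0.35, SE 0.21, adjusted p = 0.925), and the groups overlapped. Its fold change had the opposite sign from that in liver. Mrps18c had 259 and 437 in wild type and 437, 402 and 501 in knockout (0.40, SE 0.24, adjusted p = 0.927). Its fold change rested on which wild-type kidney was used, at 0.02 without wild-type kidney 1 and 0.78 without wild-type kidney 2. The others with the smallest p were Mrpl23 (0.70, adjusted p = 0.930, and 0.26 with its pseudogene added) and Mrpl2 (0.21, adjusted p = 0.930), the homolog of a protein next to the peptidyl transferase centre.

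In the time course, where each knockout liver has a wild-type liver of the same hour, 0 members passed the threshold and 0.00535% of the 18702 genes tested did (1 gene). Mrps35 was the 1 member with an unadjusted p under 0.05, which 5.99% of all genes had. Here 29 members were above 0 and 49 below (37.2% above 0, against 49.6% of all genes), and the median log2 fold change was -0.04. Of the intervals 77 lay within 1 log2 unit and 76 within 1.5-fold, the tightest bound of the 3 comparisons. No member had groups that did not overlap (0.198% of all genes did, 0.0856% higher and 0.112% lower). The median was -0.01 for large subunit genes, with 22 of 51 above 0, and -0.09 for small subunit genes, with 7 of 26 above 0; the difference between subunits was not tested.

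Small subunit genes, 26 of the 78 members, filled 4 of the 5 places with the smallest p. Of these 5 only Mrps35 had an unadjusted p under 0.05 (limma). Mrps35, a mitochondria-specific protein, had its lowest, median and highest value at 300.1, 363 and 424 in wild type and at 269, 303 and 378 in knockout. The ranges overlapped widely, and the log2 fold change was -0.23 (SE 0.09, adjusted p = 0.828). Mrps34 (-0.22), Mrps16 (-0.24) and Mrps18b (-0.29) each had an adjusted p of 0.848, and Mrpl30 had 0.15 with an adjusted p of 0.849. Exons of Mrps34 overlap those of Nme3 on the same strand, so its count is uncertain. Such overlap is not limited to the genes named for it here. It was found on the same strand for 8 members, Mrpl53 and Mrps18c among them, and on the opposite strand for 28. Read hour by hour, the median log2 difference between the genotypes over the 78 members was -0.002, -0.07, -0.07, 0.03, 0.007 and -0.08 at ZT0, 4, 8, 12, 16 and 20, with no replicate at any hour.

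**Figure D2:**
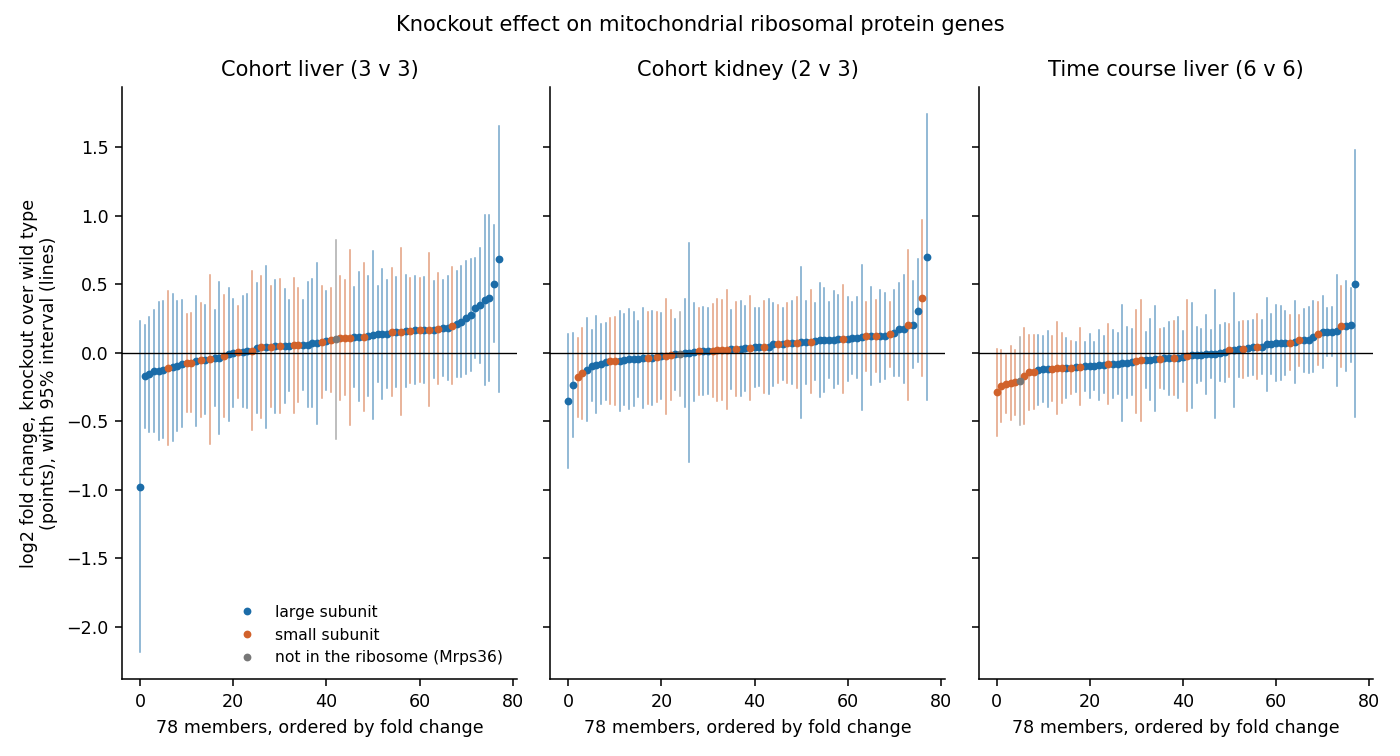
Log2 fold change of knockout over wild type for the 78 members, ordered by size within each panel (points), with its 95% interval from limma (lines), coloured by subunit; 3 against 3 cohort livers, 2 against 3 kidneys and 6 against 6 time course livers. The medians are 0.07, 0.03 and -0.04, the intervals narrow from the first panel to the last, and no member passed the adjusted threshold.

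The authors' deposited table gave no adjusted p under 0.05 for any member in any of the 3 comparisons. The smallest in the authors' deposited table was 0.378 in cohort liver.

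The knockout effects were then set against each other in joint fits. The liver effect minus the kidney effect passed the threshold for 0 members (0.00545% of 18354 genes did, 1 gene) and had an unadjusted p under 0.05 for 3 (4.41% of all genes did). These were Mrpl38 with a difference of 0.68 (SE 0.26), Mrpl14 with 0.55 (SE 0.24) and Mrpl23 with -1.68 (SE 0.76), all with an adjusted p of 0.9997. With its pseudogene added the difference for Mrpl23 was -0.03 (SE 0.23). The cohort liver effect minus the time course effect passed for 0 members (0.0388% of 18029 genes did, 7 genes) and had an unadjusted p under 0.05 for Mrpl14 (0.59, SE 0.18, adjusted p = 0.270) and Mrps35 (0.40, SE 0.16, adjusted p = 0.415), where 10.4% of all genes had one. In the time course Mrpl14 ran from 204 to 246 in wild type and from 186 to 245 in knockout. The separation seen for Mrpl14 in the cohort livers thus had no counterpart in the livers of known hour, though the difference between the sets did not pass the adjusted threshold. Collection time, age and normalization also differ between these sets.

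A daily rhythm was asked for with a 24 h cosine curve over the 12 time course livers. It passed the threshold for 5 of the 78 members, or 6.41%, beside 5.8% of all 18702 genes (1085 genes), and 16 members (20.5%) had an unadjusted p under 0.05, beside 21% of all genes. Mitochondrial ribosomal protein genes were thus called rhythmic about as often as genes in general. Their median fitted peak to trough was 0.27 log2 units, beside 0.45 in 12271 protein-coding genes with a mean of at least 10. A fitted peak to trough is never negative and grows with noise, and the sets were not matched in abundance. The members had a median mean value of 272 in the time course. Whether they were flatter than other genes of like abundance was thus not tested. Fitted peaks fell in every part of the day, with 9, 20, 9, 7, 16 and 17 members in the successive 4 h windows from ZT0. Most of these members were not called, and many of their peaks are poorly placed, as for Mrpl35 with an SE of 9.75 h. The counts therefore cannot show whether the 78 genes shared 1 phase. The 5 called members did not, with peaks from 7.62 h for Mrps9 (SE 0.49) to 20.9 h for Mrpl4 (SE 0.81).

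Mrps9 stood first. It encodes a small subunit protein whose bacterial homolog reaches with its tail to the P site. At ZT0, 4, 8, 12, 16 and 20 it had 209, 258, 339.7, 281, 173 and 157 in wild type, and 230, 269, 350.1, 295, 181 and 166 in knockout. Both genotypes rose through the light phase to ZT8, fell to ZT20 and the knockout value lay slightly above the wild-type value at each hour. The fitted peak was at 7.62 h (SE 0.49) and the peak to trough 1.05 log2 units (SE 0.14), or about a doubling (adjusted p = 0.00254). With any single time point left out the adjusted p stayed between 0.00785 and 0.0476. Within 1 genotype alone, with 6 livers, it was 0.203 in wild type and 0.269 in knockout.

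The remaining 4 depended on all 12 livers: without any single time point, none of them passed. Calls over all genes then also fell, from 1085 to between 475 and 674. Mrps5, the homolog of a bacterial protein that bears on decoding accuracy, peaked at 8.25 h (SE 0.85), near Mrps9, with a peak to trough of 0.59 (SE 0.13, adjusted p = 0.0471). It had 522, 545, 603, 624, 439.8 and 429 in wild type and 479.6, 619, 611, 619.9, 545 and 369 in knockout, highest from ZT4 to ZT12 and lowest at ZT20 in both. Without the filter on low values its adjusted p was 0.0602.

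Mrpl34 and Mrpl4 ran the other way, with fitted peaks late in the dark phase. Mrpl34, the homolog of a small bacterial large subunit protein, had 174, 123, 109, 122, 173 and 177 in wild type and 186, 157, 105, 159.7, 168 and 202 in knockout, lowest at ZT8 in both. Its peak was at 20.2 h (SE 0.79), with a peak to trough of 0.76 (SE 0.16, adjusted p = 0.0341). Under equal sums over nuclear protein-coding genes the adjusted p was 0.0588. Mrpl4, whose bacterial homolog lines the peptide tunnel, had 241, 179, 179.8, 162, 227 and 267 in wild type and 246, 181, 134, 178, 199 and 216 in knockout. Its lowest hour was ZT12 in wild type and ZT8 in knockout, and the fitted peak was at 20.9 h (SE 0.81) with a peak to trough of 0.69 (SE 0.15, adjusted p = 0.0383).

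Mrpl48, a mitochondria-specific protein of the central protuberance, was called with a peak at 11.9 h and a peak to trough of 0.82 (SE 0.17, adjusted p = 0.0368). It had 183, 202, 336, 388, 282 and 219.5 in wild type and 255, 213, 333.1, 296, 333.4 and 223 in knockout. Its processed pseudogene Mrpl48-ps had 75.1, 68.5, 0, 0.738, 38.4 and 32.9 in wild type and 40.7, 23.8, 36.1, 33.4, 0 and 27.0 in knockout. In wild type the copy was thus at or near 0 at ZT8 and ZT12, the hours when the gene was highest. In knockout the copy was at 0 at ZT16, where the gene had 333.4. At ZT8 the knockout gene had nearly the same value, 333.1, with the copy at 36.1. When the copy was added to the gene, an alternative chosen after these values were seen, the peak was at 11.5 h. The peak to trough was then 0.54 (SE 0.15) and the adjusted p 0.106 (limma), so the sum was not called. Whether the division of reads between gene and copy shapes the curve was not tested. Exons of Mrpl48 also overlap those of Rab6a on the opposite strand.

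**Figure D3:**
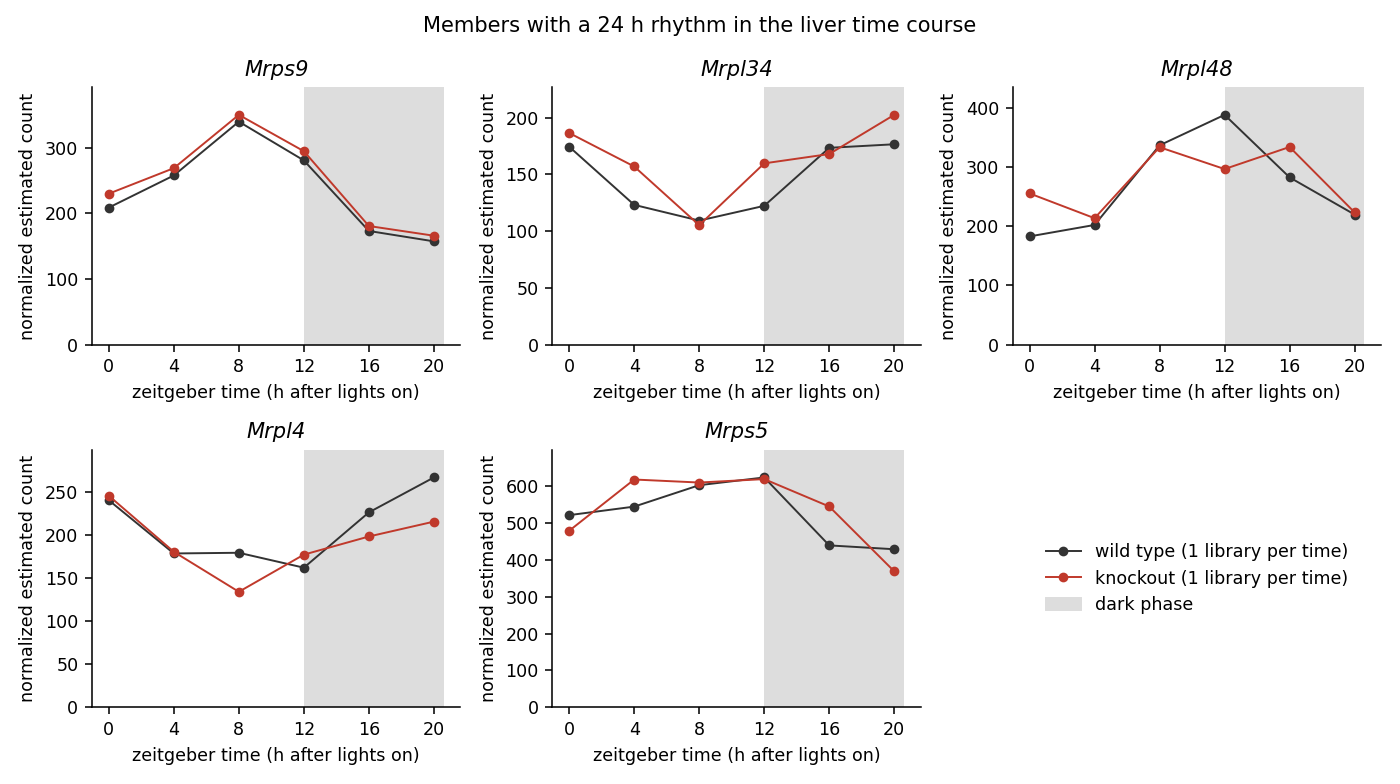
Normalized estimated counts of the 5 members with a called 24 h rhythm at ZT0 to ZT20 in wild-type (black) and knockout (red) livers, with 1 library per genotype and time, each axis starting at 0 and the dark phase shaded. Mrps9 is highest at ZT8 and Mrps5 between ZT4 and ZT12, and Mrpl34 and Mrpl4 are lowest around ZT8 to ZT12, in both genotypes.

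Next in the order came members that did not pass. Mrpl36 had a peak at 21.3 h and a peak to trough of 0.64 (adjusted p = 0.0934), and Mrpl20 (0.40, adjusted p = 0.109) and Mrpl15 (0.37, adjusted p = 0.116) peaked near 19.4 h and 19.7 h. Mrps35 peaked at 7.67 h (0.41, adjusted p = 0.191). Mrpl23 had the largest fitted swing of all 78, 2.24 log2 units, at an adjusted p of 0.167. With its pseudogene added the swing was 0.14 log2 units and the adjusted p 0.829.

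**Figure D4:**
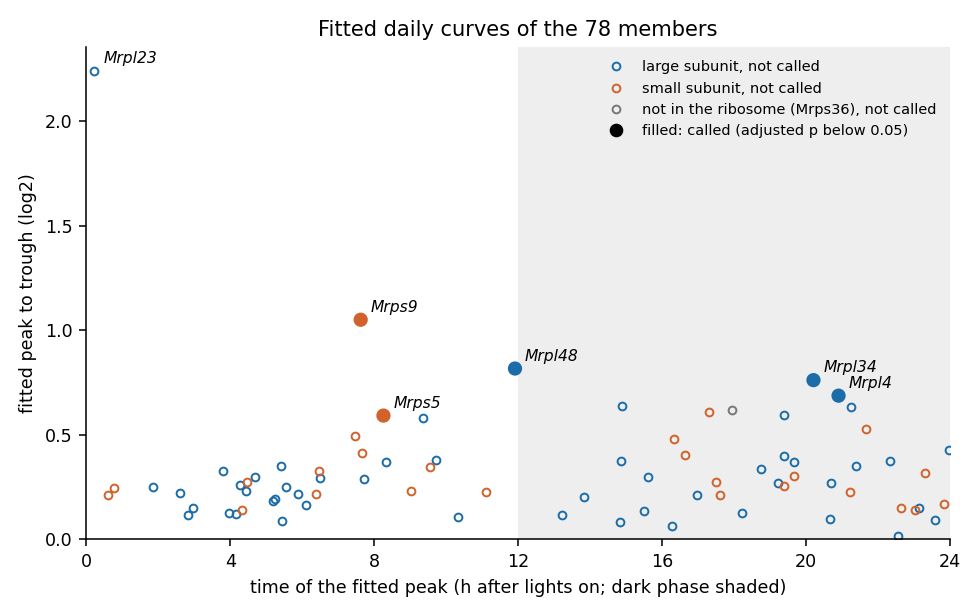
Time of the fitted peak (hours after lights on, dark phase shaded) against the fitted peak to trough in log2 units for each of the 78 members, from the cosine fit over 12 time course livers; filled points passed the adjusted threshold. Most members lie below 0.45, the 5 called ones between 0.59 and 1.05, and Mrpl23 stands alone at 2.24.

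Daily curves were compared between the genotypes by an interaction. It passed for 0 members and 0 of all 18702 genes (0%). At an unadjusted p under 0.05 there were 3 members, Mrpl52, Mrpl45 and Mrps18b, each with an adjusted p of 0.999, where 4.78% of all genes had such a p. Mrpl45 is the protein that meets the inner membrane at the tunnel exit. Mrps18b was at 536, 596, 496, 563, 645 and 549.99 in wild type and 556, 533, 533, 465.9, 329.95 and 390.4 in knockout, and the genotypes lay farthest apart at ZT16.

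Liver and kidney differed in which members made up the sum. Since the tables were normalized separately, each member was expressed as its share of the summed value of the 78 in the same library, which does not depend on scale and in which a higher share of one gene lowers those of others. For 18 members (23.1%) every kidney lay above every liver, beside 23.5% of 18354 genes set against the same sum, and for 14 (17.9%) every liver lay above every kidney, beside 15.2%. In all, 41.0% of members and 38.7% of genes stood apart between the tissues. The make-up of the group thus differed between the tissues about as often as genes in general did, and no test was made.

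Mrps6 differed most. It took 0.255% of the member sum in liver (0.217 to 0.378%, 6 libraries) and 1.22% in kidney (1.09 to 1.32%, 5 libraries), 4.78 times as much. Mrps6 shares exons on the same strand with Slc5a3, the gene of a myo-inositol transporter used by kidney cells, which had 264 ± 105 in the livers (SD, n = 6) and 7122 ± 445 in the kidneys (SD, n = 5). The part of Slc5a3 reads in the Mrps6 value was not tested. Mrps36, the dehydrogenase protein, took 0.354% in liver and 1.03% in kidney, 2.90 times as much, and 3.03 times as much when its pseudogenes were added. Mrpl4 took 1.02% in liver and 2.05% in kidney, 2.02 times as much. In the other direction, Mrpl15, a large subunit gene with a bacterial homolog, took 2.97% in liver and 1.20% in kidney, 2.49 times as much in liver. In the time course Mrpl15 was again high at 3.82%, and Mrps6 (0.280%) and Mrps36 (0.382%) were again low.

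**Figure D5:**
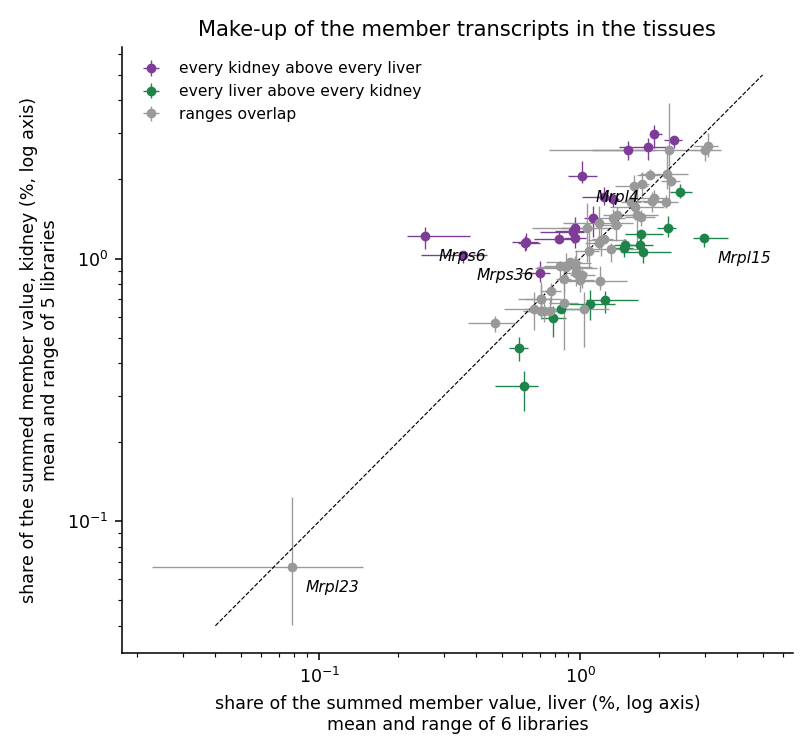
Share of the summed value of the 78 members taken by each member in cohort liver (mean and range of 6 libraries) and kidney (mean and range of 5), in percent on log axes, with genotypes pooled and the dashed line marking equal shares. Mrps6 and Mrps36 lie far above the line, Mrpl15 lies below it, and Mrpl23 is lowest at 0.0788% in liver and 0.0669% in kidney with the widest range.

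Other genes of mitochondrial translation gave the same picture of no calls. The lists were 5 ribosome proteins under other names (such as Dap3 and Ptcd3), 27 assembly factors, 15 translation factors of which 14 were tested, 20 tRNA synthetases and amidotransferase subunits, and the 13 messenger RNAs of mitochondrial DNA. No gene of any of them passed the threshold in a knockout comparison. In cohort liver the medians were 0.16, 0.13, 0.22 and 0.10 for the nuclear lists. Genes above 0 numbered 5 of 5, 19 of 27, 12 of 14 and 15 of 20, beside 50.3% of all genes. In kidney the medians were -0.03, 0.02, 0.12 and -0.003. Above 0 were 2 of 5, 15 of 27, 11 of 14 and 10 of 20, again beside 50.3%. In the time course, where times are matched, the medians were 0.11, -0.08, -0.002 and 0.007. There 5 of 5, 11 of 27, 7 of 14 and 11 of 20 were above 0, beside 49.6% of all genes. Mtg1, a GTPase of large subunit assembly, had the smallest p of the nuclear lists in cohort liver. It had 169 ± 11.0 in wild-type and 333.2 ± 60.1 in knockout livers (SD, n = 3 each, log2 fold change 0.96, SE 0.20, limma adjusted p = 0.270). In kidney Mtg1 averaged 399 and 329 (-0.29, adjusted p = 0.930). Mtif3, an initiation factor, had 391 ± 30.6 and 562 ± 50.9 in the livers (SD, n = 3 each; 0.52, adjusted p = 0.4996).

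The messenger RNAs made from mitochondrial DNA, which the ribosome translates, mostly had fold changes below 0. Their median log2 fold change was -0.42 in cohort liver, with 11 of 13 below 0, -0.38 in kidney, with 12 of 13 below 0, and -0.15 in the time course, with 10 of 13 below 0. Of all genes, 50.3%, 50.3% and 49.6% were above 0 in these comparisons. The medians of the 78 members were 0.07, 0.03 and -0.04, so in the time course both medians were below 0. Among them mt-Co3 had the smallest p in cohort liver, with 24423 ± 3018 against 15533 ± 2131 (SD, n = 3 each; -0.65, adjusted p = 0.429). Summed, the 13 messenger RNAs ran from 440829 to 633946 in wild-type and from 422800 to 521155 in knockout cohort livers, which overlap. In kidney they stood at 1150540 and 1205760 in wild type, close together although the share of all mitochondrial genes was 16.1% in only 1 of these libraries, and at 962808 to 1054730 in knockout. The kidney sums did not overlap, where single genes stood apart in 20.5% of cases. An unadjusted p under 0.05 (limma) was found for 1 of 13 in cohort liver, 3 of 13 in kidney and 0 of 13 in the time course. The shares over all genes were 7.99%, 5.4% and 5.99%. In the rhythm test no gene of these 5 lists passed, beside 5.8% of all genes. An unadjusted p under 0.05, which 21% of all genes had, was found for 0 of 5 ribosome proteins, 4 of 27 assembly factors, 3 of 14 translation factors, 7 of 20 synthetases and amidotransferase subunits and 3 of 13 mitochondrial messenger RNAs.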

How the data were processed

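The authors deposited normalized estimated counts per gene, a signal that is never negative, in 3 tables (cohort liver, cohort kidney and time course liver), per the file headers, with their own log2 fold changes and adjusted p-values. The submitters' processing notes name the build GRCm38 and the tools DESeq2 1.24.0, DESeq, R 3.6.0 and Salmon 0.12.0, without their roles. Library values came out as whole multiples of a common step (tolerance 0.005) for only 16.9 to 46.8% of low values, so reads were not recoverable, count tests were not run, and limma was used instead.

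The labels list 24 samples in 6 groups. Of these 23 were used; replicate 3 of the wild-type kidneys is not analysed here. Each table was fitted alone with limma 3.58.1 (R 4.3.3) after adding a pseudocount of 1 and taking log2, for every gene whose mean reached 1. The prior variance followed the mean (trend), tests were two-sided, p-values were adjusted by Benjamini-Hochberg over all genes, and the threshold was 0.05. Fold changes on this scale understate changes of low genes. The time course fit had time as a factor of 6 levels, since the labels give each hour to 1 library per genotype; cohort replicate numbers follow accession order and pair nothing. Rhythm was an F-test of a 24 h cosine and sine with genotype in the model, and differential rhythm the interaction with genotype. Differences between tables were interactions in joint fits. The fits were tested on simulated data. Depth (12.5 to 28.6 M estimated reads) limits genes with values of a few counts.

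The members and lists were chosen with earlier results of these data known. Named genes are those past the threshold, 5 by p in comparisons with fewer calls, the 10 smallest p for the rhythm, the 3 highest and lowest per coding kb in each table, and up to 3 by p of each other list. Values of Mrpl14 in the time course, of the tissue shares and of the pseudogenes were chosen after they were seen. Alternatives were other pseudocounts, filters, scalings and models, single libraries or hours left out, and, added after seeing the data, pseudogenes summed with their members and transcript length.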

Additional observations from a re-analysis of the deposited data

Results flagged for a closer look

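The groups tested were 38 sets of 6 time course livers (the named members and their summed level, by genotype). Of these, 2 had a library far from the others, about the 1 in 20 that chance gives. Both are the knockout liver at ZT4. Mrpl23 was at 91.96 there and at 4.84 to 27.7 in the other 5 knockout livers, while its pseudogene was at 238. Mrps17 was at 314.5 there and at 438 to 483 in the others.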

How the results depend on the processing

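The count of members past the threshold stayed 0 under each alternative run for the 3 knockout effects, the differential rhythm and the differences between tables. With no replicate block in the time course it was 0 and the median log2 fold change -0.0359, and the replicate block changed no call. The cohort liver median ran from 0.0186 to 0.197 with single libraries left out, the highest without wild-type replicate 3. The rhythm count of 5 was 1 with any one hour left out (from 1 to 1, Mrps9 each time) and with time as a factor, and 0 in wild type alone and in knockout alone, where fewer livers entered. Calls over all genes fell as well, from 1085 to between 475 and 674 with an hour left out and to 354 with time as a factor. In wild type alone 6 genes were called and in knockout alone 17, so the fall was not particular to the members. With pseudogenes added, Mrpl23 turned to 0.230 in cohort liver and to 0.254 for the cohort liver minus time course effect, since the sum is mostly the pseudogene. Of the other results, the kidney median turned to -0.0321 without wild-type replicate 1. Equal sums over nuclear protein-coding genes moved the median of all genes by less than 0.1 log2. The estimated depth leaves Mrpl23, with values of 2.59 to 91.96, the least certain member.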
